A study of Rattus norvegicus with 9 samples.

Results

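The genes described here are the interleukin-6 family of cytokines and receptors in rat dorsal root ganglion (DRG), the cluster of sensory neuron cell bodies beside the spinal cord. The 10 members were chosen by gene symbol from the 20194 genes of the deposited expression table. They are 4 ligands (Il6, Lif, Clcf1 and Cntf), 2 ligand-binding alpha receptors (Il6r and Cntfr), 3 signalling receptors (Il6st, Lifr and Osmr) and Socs3, a feedback inhibitor that served as a readout of signalling through the receptors. All 10 passed the filter used for testing, an FPKM (fragments scaled to transcript length and library size) of at least 1 in at least 1 library. Lif passed only through the SNI + G15 libraries, and Il6 and Clcf1 only through SNI and SNI + G15, so these 3 genes had to differ between some groups to be tested.

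RNA-Seq of DRG tissue from male Sprague-Dawley rats covered 3 groups of 3 samples. The sham group was sham-operated. The SNI group had spared nerve injury, in which the tibial and common peroneal branches of the sciatic nerve are cut and ligated and the sural branch is left intact. The SNI + G15 group had the same injury and then G15, an antagonist of the G protein-coupled oestrogen receptor GPER, through an intrathecal catheter implanted on SNI day 5 and used for 24 h. The labels of all 9 samples, sham and SNI included, list 2% DMSO, a catheter on day 5 after SNI and an injection for 24 h. The titles mark the sham and SNI samples as the G15 controls. Whether those rats in fact received the DMSO vehicle is not stated separately in the sources used here. The methods name 3 rats per group while another list of the study's animals gives more. Whether tissue was pooled is not given in the sources used here, and the labels do not say which animal each library came from. The titles of all 3 SNI + G15 samples share the stem D_SNI1, which is also the title of the first SNI sample. What this stem means is not stated, so the SNI + G15 libraries may not be separate animals. If libraries shared animals the p-values measure only the spread between these samples. The labels' extraction text names macrophages, while all 8 neuron markers were detected, with a summed level of 18086.2 to 20317.2 CPM (counts scaled to the library total) per library. The libraries held between 18484557 and 18756736 estimated reads. The third SNI + G15 library stood apart: the median chi-square of its counts against its 2 partners was 3.41 and 3.67 times the value expected from counting error, against 1.43 to 2.36 for the other 7 pairs within a group. Values with and without this library are given wherever it decided the call of a member or moved the count of a list by over 1.5 times.

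Each ligand among the members assembles a receptor complex that contains gp130, the protein encoded by Il6st. Interleukin-6 first binds its alpha receptor Il6r and then pairs gp130 with itself. Leukaemia inhibitory factor (Lif) pairs gp130 with Lifr, and ciliary neurotrophic factor (Cntf) and cardiotrophin-like cytokine factor 1 (Clcf1) bind Cntfr before they engage gp130 and Lifr. Oncostatin M receptor (Osmr) forms another gp130 complex. The complexes activate Janus kinases (JAK) and the transcription factor Stat3, which induces Socs3, and Socs3 binds gp130 and shuts the signal down. In sensory ganglia the family is known for its part in the response of neurons to axon injury, and Cntf is a product of Schwann cells.

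The promoters of Il6 and Cntf are shown because these 2 ligands moved in opposite directions in both comparisons that involve SNI. RefSeq windows in GRCr8 were matched by gene identifier for 7 of the 10 members, and only those of Il6 and Cntf ended at the outer start of the gene. Each sequence gives the 250 bases before the start, 5′ to 3′ on the strand of the gene, with motif matches in capitals. The Il6 window is chr4:5894576-5894825 and the Cntf window is chr1:219314536-219314785, both on the minus strand.
Il6: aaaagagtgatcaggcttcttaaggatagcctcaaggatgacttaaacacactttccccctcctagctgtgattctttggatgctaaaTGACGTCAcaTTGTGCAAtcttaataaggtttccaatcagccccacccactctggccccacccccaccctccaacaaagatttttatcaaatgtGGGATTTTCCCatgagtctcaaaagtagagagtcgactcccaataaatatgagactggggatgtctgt
Cntf: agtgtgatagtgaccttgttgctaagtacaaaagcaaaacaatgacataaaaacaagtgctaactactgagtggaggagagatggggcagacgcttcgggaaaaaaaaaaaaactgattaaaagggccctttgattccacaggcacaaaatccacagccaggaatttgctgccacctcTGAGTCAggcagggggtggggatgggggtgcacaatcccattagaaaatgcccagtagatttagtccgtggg

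In the Il6 window the capitals mark a cyclic AMP response element (CRE, TGACGTCA) beginning 162 bases before the start, a C/EBP motif (TTGCNNAA) at 152 bases and an NF-kB motif (GGGA and CC around any 4 bases). The NF-kB motif had 2 overlapping matches, 1 on each strand, at 68 and 67 bases. In the Cntf window they mark an AP-1 motif (TGANTCA) at 72 bases. Both strands were searched, and the same letters occur in 1.6% (CRE), 9.2% (C/EBP), 16.4% (NF-kB) and 6.3% (AP-1) of all 33469 windows. The STAT motif TTCNNNGAA, present in 7.7% of all windows, occurred in 0 of the 7 members' windows, Socs3 included. This says only that these letters are not within the 250 bases searched.

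**Figure D1:**
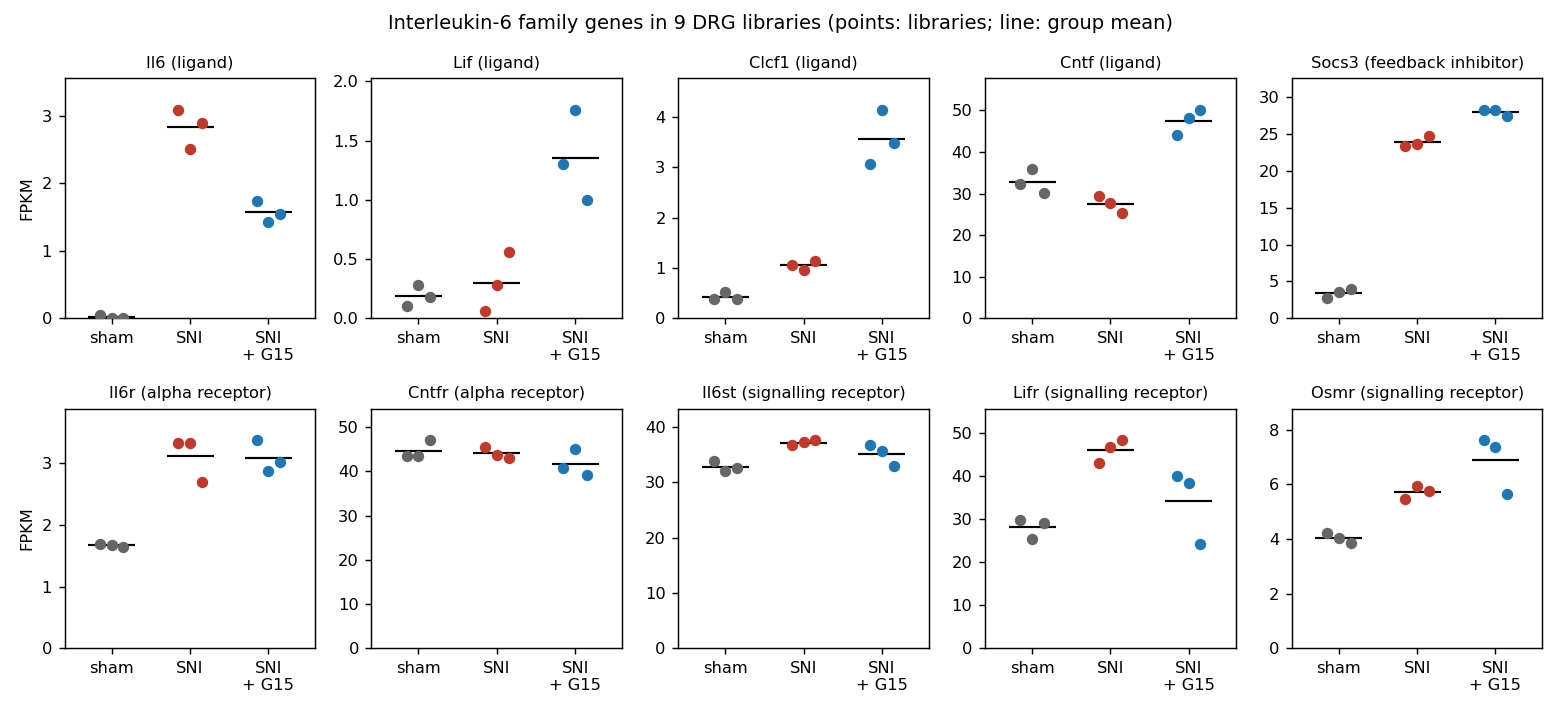
FPKM of the 10 members on linear axes that start at 0, each with its own scale, in 3 sham, 3 SNI and 3 SNI + G15 libraries. Points are libraries and lines are group means. Il6 was at or near 0 in sham and highest in SNI, Lif, Clcf1 and Cntf were highest in SNI + G15, and Cntfr was near 40 to 47 FPKM in all 9 libraries.

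Most of the 10 members, Socs3 included, stood higher after injury. The members were chosen with earlier results of these data known. Between SNI and sham, 7 members were higher, 1 was lower and 2 did not pass the test (edgeR quasi-likelihood test, Benjamini-Hochberg adjusted p under 0.05). In this comparison 45.7% of the 14305 tested genes passed, 23.3% as higher and 22.4% as lower. The libraries of the groups did not overlap for 8 members, and for 55.1% of all tested genes. The median log2 fold change of the members was 0.78, and that of all tested genes was 0.00. Of 6 other tested ligands and receptors of the family, 1 was higher and 2 were lower in SNI than in sham. Their median was -0.045, so the rise of the members does not extend to the family as a whole.

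Between SNI + G15 and SNI, 5 members were higher, 1 was lower and 4 did not pass, where 15.2% of all tested genes passed, 7.98% as higher and 7.25% as lower. Groups did not overlap for 7 members, and for 38.8% of all tested genes. The members' median log2 fold change was 0.18, against 0.01 over all tested genes. Between SNI + G15 and sham, 7 members were higher and 0 lower by edgeR (0 also at an unadjusted p under 0.05, and 0 with DESeq2 or limma), where 43.2% of tested genes passed, 21.4% as higher and 21.9% as lower. Groups did not overlap for 7 members, and for 54.0% of tested genes. The first 2 comparisons share the SNI libraries and the first and last share the sham libraries, so the values are placed side by side and no relation between them was computed. With the filter widened to every gene that had 1 count or more, the same numbers of members were called in each direction.

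Il6, the founding ligand and an acute inflammatory cytokine, was listed at 0.05, 0 and 0 FPKM in the sham libraries. It stood at 3.09, 2.51 and 2.89 FPKM in SNI and at 1.73, 1.42 and 1.55 FPKM in SNI + G15. The 3 groups did not overlap, and every SNI + G15 library lay between the sham and the SNI libraries. These levels rested on 1 estimated read over the 3 sham libraries, 162 over SNI and 90 over SNI + G15. The ratio of reads was 162 for SNI over sham (exact 95% interval 28.7 to 6440) and 90.0 for SNI + G15 over sham (15.7 to 3590), and these intervals cover counting error only. Il6 rose in both comparisons with sham (edgeR adjusted p = 2.18e-06 and 3.48e-05). Between SNI + G15 and SNI it fell by 0.83 on the log2 scale (SE 0.192, adjusted p = 0.0221 by edgeR), to a fold of 0.56. That last call was lost with DESeq2 (adjusted p = 0.0511) and when any 1 of 3 libraries was left out (0.0756 without SNI replicate 1, 0.0744 without SNI replicate 3, and 0.0641 without the second SNI + G15 library), and the level in SNI + G15 stayed the lower one each time.

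Lif, a ligand known from injured peripheral nerve, had 0.10, 0.28 and 0.18 FPKM in sham and 0.06, 0.28 and 0.56 FPKM in SNI. In SNI + G15 it had 1.30, 1.76 and 1.0 FPKM. The sham and SNI libraries overlapped, and all 3 SNI + G15 libraries lay above both. The counts behind these values were low, from 2 to 14 reads per library in sham and SNI and from 34 to 46 in SNI + G15. The log2 fold change was 1.0 for SNI over sham, with an interval of 2 SE on each side from -0.27 to 2.27 (edgeR adjusted p = 0.224). Lif was higher in SNI + G15 than in SNI, by 2.07 (SE 0.409, adjusted p = 0.0116 by edgeR) or 4.20-fold, and higher than in sham by 3.05 (SE 0.377, adjusted p = 0.000129).

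Clcf1, a ligand that shares its receptor with Cntf, had 0.38, 0.52 and 0.38 FPKM in sham. It reached 1.05, 0.96 and 1.14 FPKM in SNI and 3.06, 4.15 and 3.48 FPKM in SNI + G15. The groups were ordered sham, SNI, SNI + G15 with no overlap. Clcf1 rose by 1.26 on the log2 scale in SNI over sham (SE 0.261, edgeR adjusted p = 0.00265). It was higher again in SNI + G15, by 1.78 over SNI (SE 0.167, edgeR adjusted p = 0.00034) and by 3.01 over sham (SE 0.206, adjusted p = 2.59e-06), the last an 8.08-fold difference. In the GRCr8 annotation Clcf1 overlaps Rad9a, and whether reads were counted by strand is not given in the sources used here. The Rad9a count was 305.4 to 317.4 in sham, 256.9 to 267.3 in SNI and, in SNI + G15, 260.6 to 316.0. Rad9a moved opposite to Clcf1 between sham and SNI. Between SNI and SNI + G15 its log2 fold change of 0.16 had the sign of Clcf1 but did not pass (edgeR adjusted p = 0.201). The part of the overlap in the Clcf1 level was not tested.

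Cntf, a survival factor for neurons, was the most abundant ligand of the 4 in every group. It had 32.19, 35.95 and 30.23 FPKM in sham and 29.41, 27.80 and 25.20 FPKM in SNI. In SNI + G15 it had 44.13, 48.09 and 50.17 FPKM. SNI was the lowest group and SNI + G15 the highest, with no overlap between any groups. Cntf fell by 0.29 on the log2 scale in SNI against sham (SE 0.077, edgeR adjusted p = 0.0113). It was higher in SNI + G15 than in SNI by 0.80 (SE 0.076, adjusted p = 0.000353 by edgeR) or 1.74-fold, and higher than in sham by 0.50 (SE 0.081, adjusted p = 0.000764). It thus passed the test in all 3 comparisons and was the only member called lower in SNI than in sham.

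Markers of Schwann cells moved in the same directions as Cntf. In SNI against sham, 23.3% of all tested genes were higher and 22.4% lower, and 7.98% were higher in SNI + G15 than in SNI. Of 7 Schwann markers, 6 were lower in SNI than in sham and 5 were higher in SNI + G15 than in SNI. Their summed level was 8597.1 to 8758.3 CPM in sham, 4761.8 to 4861.6 CPM in SNI and, in SNI + G15, 5104.2 to 5304.9 CPM, with no marker at 0 in all libraries. Unlike Cntf, the Schwann sum in SNI + G15 stayed below that of sham. All 6 fibroblast markers were higher in SNI + G15 than in SNI, and their summed level was 1830.6 to 1859.1 CPM against 1391.3 to 1401.7 CPM. Of 8 macrophage markers, 7 were higher in SNI than in sham, from 187.1 to 196.9 CPM in sham up to 380.1 to 402.5 CPM in SNI, and 420.6 to 434.5 CPM in SNI + G15. In T cells, 4 of 5 markers were in the table, and their summed level was 1.9 to 2.6, 4.3 to 4.8 and 1.7 to 2.1 CPM in sham, SNI and SNI + G15, an order in which SNI was highest, as for Il6. The 4 erythroid markers had sums of 61.2 to 62.9, 204.5 to 209.6 and 120.0 to 138.7 CPM, the same order of groups as Il6. The sums of 5 neutrophil markers were 56.1 to 64.5, 93.8 to 108.8 and 99.7 to 116.5 CPM, and those of 5 satellite glia markers 784.5 to 829.1, 838.7 to 857.4 and 907.5 to 973.6 CPM. The sum of 5 endothelial markers was 114.9 to 120.8, 117.6 to 119.8 and 150.9 to 159.9 CPM, highest in SNI + G15 as were Lif, Clcf1 and Cntf. Of 8 neuron markers, 4 were lower and 2 higher in SNI than in sham, with a summed level of 19850.8 to 20317.2 CPM in sham and 18086.2 to 18620.6 CPM in SNI. The part of these cells in the members' levels was not tested, and in bulk tissue fewer cells of a type and less RNA per cell cannot be told apart.

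Il6r, which gives a cell its sensitivity to interleukin-6, had 1.70, 1.68 and 1.64 FPKM in sham, 3.33, 3.33 and 2.69 in SNI, and 3.38, 2.88 and 3.02 in SNI + G15. Both injured groups lay above sham and overlapped each other. Il6r rose by 0.88 on the log2 scale in SNI (SE 0.091, edgeR adjusted p = 2.31e-05) and by 0.85 in SNI + G15 (SE 0.092, adjusted p = 5.54e-05) against sham. The log2 difference between SNI + G15 and SNI was 0.00, with 2 SE on each side reaching from -0.20 to 0.19 (edgeR adjusted p = 0.982). Il6r overlaps the gene She in the annotation, whose count was 513.3 to 606.1 in sham, 617.2 to 680.2 in SNI and, in SNI + G15, 591.2 to 608.7. She was called higher in SNI than in sham, as was Il6r, by 0.19 on the log2 scale (edgeR adjusted p = 0.0401). That call held in 6 of 15 alternatives. The part of this overlap in the Il6r level was not tested.

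Cntfr, the alpha receptor for Cntf and Clcf1, had 43.49, 43.39 and 47.13 FPKM in sham. It had 45.50, 43.72 and 43.03 FPKM in SNI and 40.67, 45.06 and 39.12 FPKM in SNI + G15. All 3 groups overlapped, and Cntfr passed in no comparison. Its log2 fold change was -0.07 for SNI over sham (2 SE on each side, -0.17 to 0.04, edgeR adjusted p = 0.304) and -0.05 for SNI + G15 over SNI (-0.15 to 0.06, adjusted p = 0.589). Against sham, SNI + G15 stood at -0.14 (-0.27 to -0.01, edgeR adjusted p = 0.11). The ratio of Cntf to Cntfr FPKM was 0.737 ± 0.094 (SD, n = 3) in sham, 0.623 ± 0.032 in SNI and 1.145 ± 0.119 in SNI + G15. The SNI + G15 ratios, from 1.067 to 1.282, lay above all others, while those of sham and SNI overlapped by a single pair of libraries (0.641 in sham and 0.646 in SNI).

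Il6st, which encodes the shared subunit gp130, had 33.86, 31.98 and 32.64 FPKM in sham and 36.71, 37.24 and 37.68 FPKM in SNI. In SNI + G15 it had 36.80, 35.76 and 33.04 FPKM, which overlapped both other groups. It rose by 0.15 on the log2 scale in SNI over sham (SE 0.035, edgeR adjusted p = 0.00517), a 1.11-fold difference. Relative to tested genes of like transcript length this value was 0.09. SNI + G15 differed from SNI by -0.07 (2 SE on each side, -0.15 to 0.02, edgeR adjusted p = 0.315) and from sham by 0.06 (-0.04 to 0.16, adjusted p = 0.376).

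Lifr, the partner of gp130 for Lif, Cntf and Clcf1, had 29.70, 25.23 and 29.15 FPKM in sham, 42.88, 46.64 and 48.29 in SNI, and 39.87, 38.31 and 24.20 in SNI + G15. Every SNI library lay above all libraries of both other groups, and the third SNI + G15 library lay below every sham library. Lifr rose by 0.67 on the log2 scale in SNI over sham (SE 0.065, edgeR adjusted p = 1.24e-05) or 1.60-fold. The differences of SNI + G15 from SNI (-0.42, SE 0.151, edgeR adjusted p = 0.0927) and from sham (0.23, SE 0.154, adjusted p = 0.26) did not pass. Both passed without the third SNI + G15 library, at -0.23 against SNI (edgeR adjusted p = 0.0104) and 0.43 against sham (adjusted p = 0.000933). The estimated counts of Lifr were not whole in 7 of 9 libraries, so its values include fractional assignments of reads.

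Osmr, the oncostatin M receptor, had 4.23, 4.05 and 3.86 FPKM in sham and 5.45, 5.96 and 5.76 FPKM in SNI. In SNI + G15 it had 7.63, 7.38 and 5.66 FPKM. The first 2 of these lay above SNI, and the third was within the SNI range. Osmr rose by 0.53 on the log2 scale in SNI over sham (SE 0.063, edgeR adjusted p = 6.67e-05), by 0.42 in SNI + G15 over SNI (SE 0.086, adjusted p = 0.0134 by edgeR) and by 0.92 in SNI + G15 over sham (SE 0.088, adjusted p = 2.21e-05). The fit used counts, of which the SNI + G15 libraries had 714 to 895 and the SNI libraries 561 to 634, with no overlap. On FPKM, limma did not call the difference between SNI + G15 and SNI (adjusted p = 0.174), and edgeR did not without SNI replicate 3 (adjusted p = 0.0643). Osmr and Lifr are neighbours on rat chromosome 2, and the ratio of Osmr to Lifr FPKM was 0.132 to 0.161 in sham, 0.119 to 0.128 in SNI and, in SNI + G15, 0.191 to 0.234.

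The fold change between SNI + G15 and SNI varied with transcript length, and this bears on Il6st, Lifr, Osmr and Il6r, the longest of the members. Among the tested genes nearest in effective length (250 on each side), the median log2 fold change was -0.13 for genes like Il6st, -0.10 for genes like Lifr and Osmr, and 0.14 for genes like Il6. Relative to these medians the values became 0.06 for Il6st, -0.32 for Lifr, 0.52 for Osmr, 0.07 for Il6r, -0.97 for Il6 and 0.68 for Cntf. The signs of Il6st and Il6r, neither of which passed the test, thus turned.

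**Figure D2:**
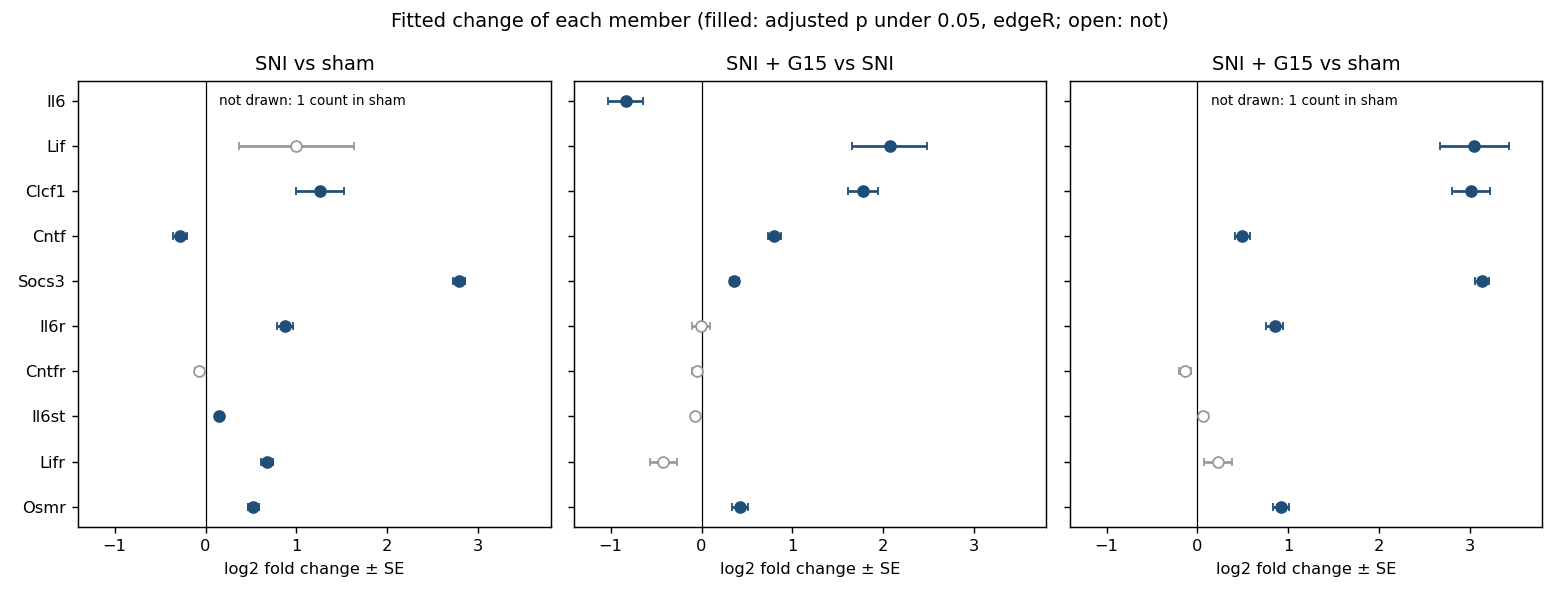
Log2 fold change of each member (horizontal axis) in SNI vs sham, SNI + G15 vs SNI and SNI + G15 vs sham, from edgeR fits to 3 libraries per group, with bars of 1 SE. Filled points passed an adjusted p of 0.05 and open points did not, and Il6 against sham is not drawn because its fitted value rests on 1 sham read. The largest drawn changes are those of Socs3 against sham (2.79 in SNI and 3.13 in SNI + G15) and of Lif and Clcf1 in SNI + G15 against sham (3.05 and 3.01).

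Socs3, the feedback inhibitor of gp130 that Stat3 induces, had 2.73, 3.57 and 4.02 FPKM in sham. It stood at 23.45, 23.65 and 24.80 FPKM in SNI and at 28.33, 28.32 and 27.45 FPKM in SNI + G15. The groups were ordered sham, SNI, SNI + G15 with no overlap, and the injured groups were far above sham. Socs3 rose by 2.79 on the log2 scale in SNI over sham (SE 0.069, edgeR adjusted p = 4.19e-10), a 6.93-fold difference larger in size than that of 99.2% of tested genes. It was higher in SNI + G15 than in SNI by 0.36 (SE 0.046, adjusted p = 0.00142 by edgeR) or 1.29-fold, and higher than in sham by 3.13 (SE 0.077, adjusted p = 2.91e-09). Between SNI and SNI + G15, Socs3 moved in the direction of Lif, Clcf1, Cntf and Osmr, and opposite to Il6. The macrophage sums given above also had the order sham, SNI, SNI + G15, and their part in the level of Socs3 was not tested.

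The transcript table divided the reads of a gene among its models, and these shares are given as a description. Socs3 had 2 models, and XM_008768398.1 carried 70.1% to 100% of the gene's FPKM in sham, 82.2% to 87.2% in SNI and, in SNI + G15, 93.5% to 100%. The second model, NM_053565.1, stood at 0 to 1.2 FPKM in sham, 2.99 to 4.21 in SNI and, in SNI + G15, 0 to 1.83, so it was highest in SNI while the first was highest in SNI + G15. For Lif, XM_006251364.3 held 55.7% to 62.0% of the FPKM in SNI + G15 and at most 25.0% in any SNI or sham library, where the gene had few reads. For Osmr, XM_006232012.3 held 59.4% to 71.0% in sham, 59.5% to 83.3% in SNI and, in SNI + G15, 77.1% to 96.5%, and the SNI range overlapped both others. For Lifr, XM_006232027.3 held 91.3% to 94.4% in all 9 libraries. Il6, Clcf1 and Cntf had 1 model each.

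**Figure D3:**
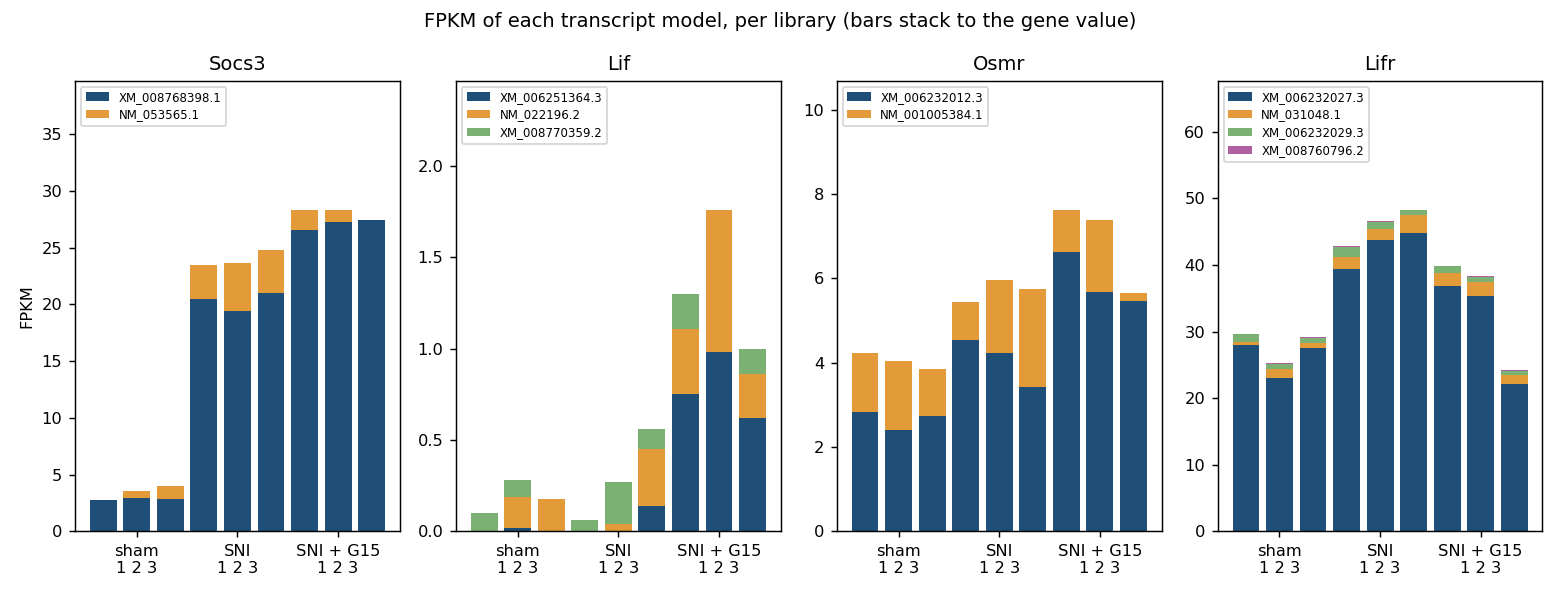
FPKM of each transcript model of Socs3, Lif, Osmr and Lifr (vertical axes, linear from 0), stacked to the gene value, in replicates 1 to 3 of sham, SNI and SNI + G15. Lif in SNI + G15 is mostly model XM_006251364.3, and the drop of Lifr in the third SNI + G15 library, to 24.20 FPKM, falls on its main model.

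On the FPKM scale, which corrects for length, the order of the members differed between groups. In sham it was Cntfr, Il6st, Cntf, Lifr, Osmr, Socs3, Il6r, Clcf1, Lif and Il6, from a mean of 44.7 down to 0.02 FPKM. Neighbours whose libraries overlapped were Il6st with Cntf and Osmr with Socs3. In SNI, Lifr (45.9 ± 2.77, SD, n = 3) and Cntfr (44.1 ± 1.27) led with overlapping libraries, and Socs3 had moved above Osmr, while Il6r (3.12 ± 0.37) and Il6 (2.83 ± 0.30) overlapped. In SNI + G15, Cntf led (47.5 ± 3.07), overlapping Cntfr (41.6 ± 3.08). Il6st, Lifr and Socs3 followed, and Lifr (34.1 ± 8.63) overlapped both others. Clcf1 (3.56 ± 0.55) overlapped Il6r (3.09 ± 0.26), and Il6 (1.57 ± 0.16) overlapped Lif (1.4 ± 0.38).

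Other ligands and receptors of the family were mostly low. Of 11 in the list, 6 were tested. Il11ra1, the interleukin-11 alpha receptor, was lower than sham in SNI (-0.43, edgeR adjusted p = 0.000216) and in SNI + G15 (-0.34, adjusted p = 0.00775). Sort1, a sorting receptor, was also called lower in both, at -0.15 (edgeR adjusted p = 0.0362) and -0.34 (adjusted p = 0.00202). Its sham and SNI libraries overlapped. The first of these calls was lost with limma (adjusted p = 0.115) and with edgeR scaled to library totals only (adjusted p = 0.0837). It was also lost by edgeR without sham replicate 1 or 3 or SNI replicate 1 or 2 (adjusted p from 0.105 to 0.127).

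Osm and Il11 were below the FPKM minimum and were read from the wider fit, which kept every gene with 1 count or more. Osm, the ligand of Osmr, had 7 to 13 reads per library in sham, 13 to 19 in SNI and, in SNI + G15, 12 to 19, and passed in no comparison (edgeR adjusted p from 0.122 to 0.899). Il11 had 3 to 6 reads in sham, 14 to 17 in SNI and, in SNI + G15, 18 to 26. It was higher than sham in SNI by 1.72 on the log2 scale (edgeR adjusted p = 0.00433) and in SNI + G15 by 2.10 (adjusted p = 0.0013), and its difference between the injured groups, 0.40, did not pass (adjusted p = 0.371).

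The proteases that cut receptors such as Il6r from the cell surface, and their iRhom cofactors, were higher after injury. Of 4 genes tested, 3 rose in SNI over sham, namely Adam17 (0.51), Rhbdf2 (0.42) and Adam10 (0.27), with a list median of 0.35. In that comparison 23.3% of all tested genes were higher. Between SNI + G15 and SNI, 15.2% of all tested genes passed. Of the 4, 0 passed by edgeR, DESeq2 or limma and 1 had an unadjusted edgeR p under 0.05 (Rhbdf1, 0.15, adjusted p = 0.098). Without SNI + G15 replicate 3, 1 was called higher. All 4 were higher in SNI + G15 than in sham (2 to 4 with a library left out, the 2 without SNI + G15 replicate 2), with values from 0.20 to 0.54. There 21.4% of all tested genes were higher.

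The Janus kinases, STAT factors and adaptors that act below the receptors split by comparison. Of 16 tested, 12 were higher in SNI than in sham, 0 were lower by edgeR (0 also at an unadjusted p under 0.05 or with DESeq2), and the list median was 0.24. Over all tested genes, 23.3% were higher and 22.4% lower. Jak2, a kinase bound to gp130, rose by 1.07 (SE 0.053, edgeR adjusted p = 9.43e-08), Stat3 by 0.43 (SE 0.036, adjusted p = 5e-06) and Stat5a by 0.75. Stat4 rose by 2.28 from 11 reads in each sham library, and it reached the FPKM minimum only in SNI. Between SNI + G15 and SNI, 7.98% of all tested genes were higher and 7.25% lower, and the list median was -0.09. In the list 0 were higher by edgeR (0 also unadjusted or with DESeq2) and 4 were lower. They included Stat2 (-0.53, SE 0.041, edgeR adjusted p = 0.000128), Jak1 (-0.26, SE 0.039, adjusted p = 0.00323) and Stat5b (-0.24, adjusted p = 0.0266), the last of which was lost with DESeq2 (0.0719) and without any of the SNI libraries or the second SNI + G15 library (edgeR, 0.0671 to 0.105). Stat2 is best known from the interferon response, and it was also below sham in SNI + G15, at -0.31 (edgeR adjusted p = 0.000759). Stat3 stood at 67.65 to 72.51 FPKM in sham, 95.83 to 98.47 in SNI and, in SNI + G15, 86.61 to 95.23, and its difference between the injured groups (-0.06, edgeR adjusted p = 0.321) did not pass. Jak2 did not pass there either (-0.08, adjusted p = 0.509). Against sham, 7 of the 16 were higher and 2 lower in SNI + G15, where 21.4% of all tested genes were higher and 21.9% lower.

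Feedback inhibitors other than Socs3 rose in part after injury. Of 14 tested, 6 were higher in SNI than in sham, with the smallest adjusted p for Cish (0.96), Ptpn6 (1.19), Ptpn1 (0.86) and Ptpn2 (0.78), and 0 were lower by edgeR (0 also unadjusted or with DESeq2). Over all tested genes, 23.3% were higher and 22.4% lower. Between SNI + G15 and SNI, 15.2% of all tested genes passed. In this list 0 of the 14 passed in either direction by edgeR (1 higher and 1 lower at an unadjusted p under 0.05, 0 with DESeq2, 1 higher without SNI + G15 replicate 1). The list median was -0.04, while Socs3 passed at 0.36. Whether Socs3 differed from the others was not tested. Against sham, 5 of the 14 were higher and 1 lower in SNI + G15, where 21.4% of all tested genes were higher and 21.9% lower.

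Most tested genes in a list of Stat3-responsive and acute-phase genes rose after injury. The list was chosen with earlier results of these data known, so its counts are a description, and Stat3 activity was not tested. Of 32 in the list, 28 were tested, and 26 were higher in SNI than in sham, 1 was lower (Vegfa, -0.36) and 1 did not pass. Over all tested genes, 23.3% were higher and 22.4% lower. Serpina3n, Hamp, Reg3b, Reg3a, Vip and Sprr1a stayed below 1 FPKM in every sham library. They passed the filter only through the injured groups, so they had to be higher there to be tested. They are included in the 26 and in the list median. Fga, Fgb, Fgg and Crp stayed below the FPKM minimum in all 9 libraries and were not tested. The list median was 1.27. The smallest adjusted p belonged to Atf3, a marker of axotomised neurons (5.13 on the log2 scale, from 3.61 to 4.30 FPKM in sham up to 138.34 to 143.20 in SNI), A2m (2.81), Gal (4.76) and Serpina3n (7.39). Vip had 0 reads in all sham libraries and was at least 628.6-fold higher in SNI, taking a floor of 3 counts over the sham group. The list median was the same, 1.27, with Vip at this bound.

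When SNI + G15 was set against SNI, 7.98% of all tested genes were higher and 7.25% lower. Of the same 28, 10 were higher and 2 lower, and the list median was 0.14. With a library left out, 9 to 13 were higher and 1 to 4 lower, the 4 without SNI + G15 replicate 3. Lbp, which binds bacterial lipopolysaccharide, had 2.64 to 3.12 FPKM in sham, 6.16 to 6.53 in SNI and, in SNI + G15, 30.03 to 36.16. It was higher by 2.39 on the log2 scale between the injured groups (SE 0.078, edgeR adjusted p = 5.9e-07). Hmox1, the haem-degrading enzyme, was higher by 1.05 (adjusted p = 1.15e-05 by edgeR), A2m by 0.97 (2.31e-05) and Junb by 0.55 (0.000336). Serpina3n, a serine protease inhibitor, was lower by edgeR at -1.15 (SE 0.044, adjusted p = 1.8e-06), with 63.19 to 66.88 FPKM in SNI and 27.89 to 29.29 in SNI + G15. Vegfa was lower at -0.21 (edgeR adjusted p = 0.0263), a call that was lost without SNI replicate 1 (0.0844), SNI replicate 3 (0.114) or the first SNI + G15 library (0.0585). Lbp and A2m thus had the order of groups seen for Socs3, and Serpina3n that seen for Il6. Many of these genes respond to other signals as well. Against sham, SNI + G15 had 25 higher and 1 lower, with a list median of 1.82 (1.81 with Vip at its bound). There 21.4% of all tested genes were higher and 21.9% lower.

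**Figure D4:**
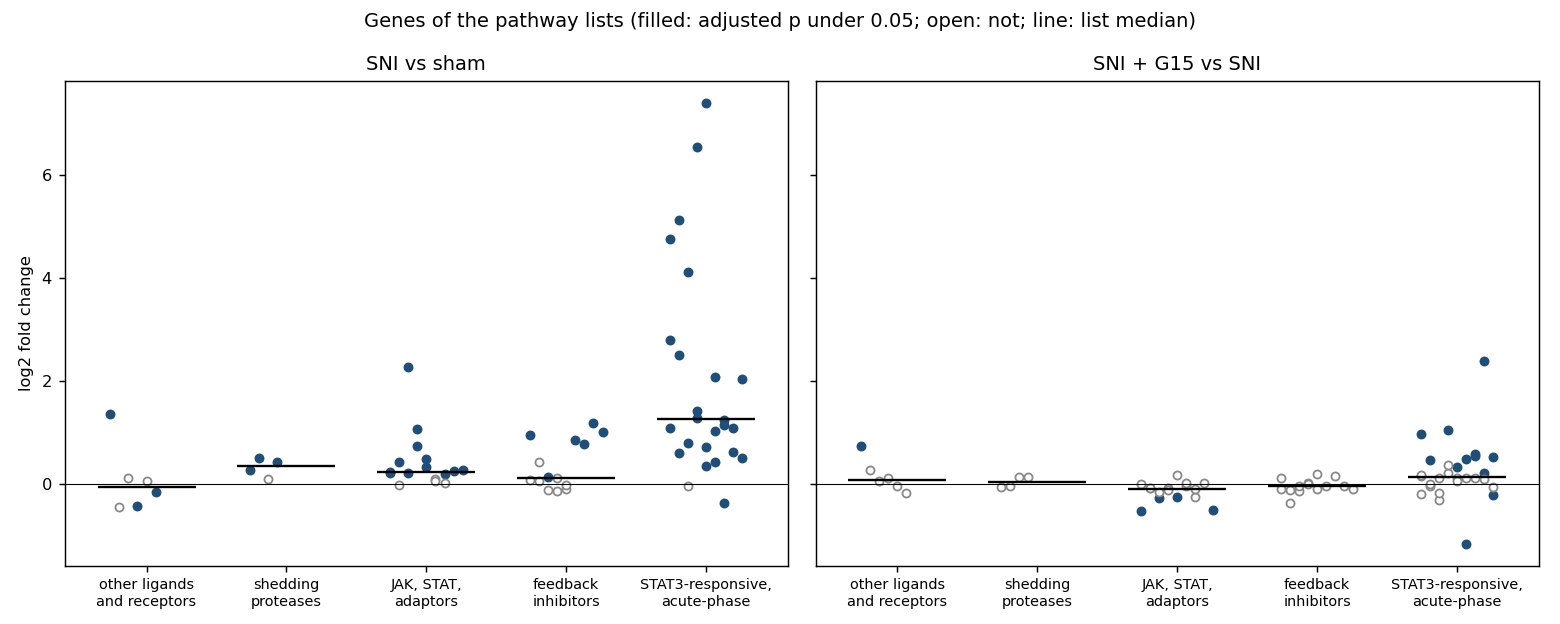
Log2 fold change (vertical axis) of each tested gene in 5 lists of pathway genes, for SNI vs sham and SNI + G15 vs SNI, from edgeR fits to 3 libraries per group. Filled points passed an adjusted p of 0.05, open points did not, and lines are list medians. Vip, Sprr1a and Hamp are left out of the first panel because they had 3 sham reads or fewer in all. The STAT3-responsive list spreads upward after injury (median 1.27) and on both sides of 0 between SNI + G15 and SNI (median 0.14).

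The genes whose levels followed those of 3 members most closely were found by the Pearson correlation of log2(CPM + 1) over the 9 libraries, among 13632 genes. The points share 3 groups of 3 libraries, so the correlations describe the order of the groups. Il6 was most like RT1-Bb (r = 0.994), a class II antigen-presentation gene with group means of 7.16, 61.32 and 33.9 CPM in sham, SNI and SNI + G15, then Tp53i3 (0.993) and Slc14a1 (0.992). Cntf was most like Dhrs3 (r = 0.984), with means of 15.97, 13.0 and 20.87 CPM, then Rgcc (0.976). Socs3 was most like Cd4 (r = 0.999), with means of 37.31, 79.83 and 87.24 CPM, then Ugt1a7c (0.998) and Cldn4 (0.998). The number of genes with r above 0.9 was 1110 for Il6, 147 for Cntf and 1516 for Socs3.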

How the data were processed

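The data are RNA-Seq libraries of DRG, 3 in each of the sham, SNI and SNI + G15 groups. The authors deposited FPKM per gene and transcript, gene values being the sum over transcripts, and unscaled estimated counts, some of them fractional. The columns called Control were assigned to sham because the remaining columns name the 2 other groups. The aligner is not given in the sources used here; the submitters' processing notes name the mouse builds GRCm38 and mm10, but the gene identifiers are rat NCBI IDs, so no gene coordinates of the files are printed. RNA input, kit and DMSO percentage differ between labels and methods.

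Rounded estimated counts of 14305 genes that reached an FPKM of 1 in any sample were tested with edgeR 4.0.16 (TMM, quasi-likelihood) in R 4.3.3 on the groups compared, with an adjusted p under 0.05 as a call. The SE is the log2 fold change over the square root of F. Alternatives used DESeq2 1.42.0, limma 3.58.1, other filters and scalings, leaving out each replicate, and a replicate block. Samples with the same number in different groups did not deviate together (9 correlations from -0.13 to 0.07). All 10 members, at most 4 called genes of each list by adjusted p, and the 3 genes most like Il6, Cntf and Socs3 are named. Osm, Il11, Jak1, Jak2 and Stat3 are named whatever their values. Rhbdf1, Vip, the list genes named for the filter, and the overlapping Rad9a and She were named after their values were seen. Results for a few genes under this rule are left out here. The members and lists were chosen with earlier results of these data known. On simulated counts edgeR recovered 90%, 92% and 90% of 200 genes changed by 1 on the log2 scale, with 24, 10 and 11 false calls, for SNI vs sham, SNI + G15 vs SNI and SNI + G15 vs sham, among 14305 genes. Recovery of smaller changes was not simulated. The simulation changed far fewer genes than were called in these data and held no outlying library, so it does not give the error rate of the real comparisons.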

Additional observations from a re-analysis of the deposited data

How the results depend on the processing

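Of 90 counts of members called under 15 alternatives to each comparison, 85 stayed within 1.5 times the main count. The 5 exceptions were all the 1 member called lower in SNI + G15 than in SNI, Il6, which became 0 with DESeq2 and ranged from 0 to 2 with a library left out, the 2 being Il6 and Lifr without SNI + G15 replicate 3. With a library left out, members called higher ranged from 4 to 5 in SNI + G15 vs SNI, from 7 to 8 in SNI + G15 vs sham and stayed at 7 in SNI vs sham. With the replicate block the numbers called in SNI + G15 vs SNI were again 5 higher and 1 lower, and over all genes 1292 passed in place of 2179, but the numbers were not found to pair the samples. Over all genes in that comparison, calls numbered 893 to 1098 without an SNI library and 1583 to 2333 without an SNI + G15 library. Among the members and the list genes named, signs turned for values that had not passed: Il6r between the injured groups (from -0.0892 to 0.0521 with a library left out, 0.0726 relative to genes of like length), Il6st (0.0641) and Stat3 (0.0154) likewise relative to like length, Jak2 (from -0.1513 to 0.0045 with a library left out), and Jak1 against sham (0.0157 relative to like length). The comparison with genes of like length was chosen after seeing the data. The causes were not tested. Low counts limit Il6 in sham and Lif in sham and SNI, and 3 libraries per group limit all values.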
